A study of Mus musculus with 8 samples.

Results

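The 10 genes described here encode subunits of the transcription factor AP-1 and further products of the immediate early response: Fos, Fosb, Fosl2, Jun, Junb, Jund, Egr1, Ier2, Ier3 and Dusp1. They were chosen by gene name, taking every non-control spot that carries one of these names, and are 10 of the 19128 genes tested, with 11 of 39429 probes and 20 of 43020 spots. All 10 passed the filter on dim probes, through 10 of their 11 probes, which were well above background on all 8 arrays. The study measured mRNA on 1-colour arrays in early erythroid progenitors of E14.5 fetal liver from C57BL/6 mice. Lineage-positive cells and cells positive for Sca-1, CD16/32, CD41 or CD34 had been removed, and c-kit-positive cells in the lowest 10% for CD71 had then been sorted. The 4 groups of 2 arrays each were cells with a virus encoding shRNA1 cultured with DEX, cells with a virus encoding shRNA2 cultured with DEX, cells with a control virus cultured with DEX, and cells with a control virus cultured without DEX. Every group, the controls included, had thus been infected with a virus and cultured for 3 days before RNA extraction. DEX is a glucocorticoid, going by the title of the series. Both hairpins target an RNA-binding protein that the labels do not name and that is Zfp36l2 from knowledge of the published study. Nothing in the labels ties the 2 replicates of a group to separate animals or cultures; the p-values below therefore reflect only how far these 8 arrays scatter, and that scatter may be technical.

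AP-1 is a dimer of a Jun protein with another Jun protein or with a Fos protein, and it binds a short palindromic DNA element. Most of its genes are immediate early genes: growth factors, stress and cell handling switch them on within minutes through MAP kinases, without new protein synthesis, and their mRNAs are short-lived. Egr1 encodes a zinc finger transcription factor of the same response, Ier2 and Ier3 encode small immediate early proteins, and Dusp1 encodes a phosphatase that switches MAP kinases off again. The glucocorticoid receptor is known in other cells to interfere with AP-1 activity and to induce Dusp1, and proteins of the Zfp36 family bind AU-rich elements in the mRNAs of several immediate early genes.

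The promoters of 4 of the genes are shown because the largest slide differences below belong to Fos, Fosb and Jun and because Dusp1 alone holds a full cAMP response element. RefSeq promoter entries (build GRCm38.p6) were used for 8 of the 10 genes. Ier2 had no entry. Egr1 was not searched, because member promoters on its chromosome were left out, so the member counts below do not cover it. Each sequence covers the 250 bases before the annotated start, read in the direction of the gene, and positions are counted backwards from that start. Capitals mark TGACG, the core of a cAMP response element, TGACGTCA, the full element, and TGACATCA, the AP-1-like element known from the Jun promoter.
Fos, chr12:85473640-85473889, plus strand: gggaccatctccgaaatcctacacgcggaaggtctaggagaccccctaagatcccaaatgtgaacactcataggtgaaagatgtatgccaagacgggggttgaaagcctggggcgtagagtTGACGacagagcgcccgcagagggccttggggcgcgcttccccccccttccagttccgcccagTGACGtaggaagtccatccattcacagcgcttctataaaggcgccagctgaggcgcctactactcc
Fosb, chr7:19310046-19310295, minus strand: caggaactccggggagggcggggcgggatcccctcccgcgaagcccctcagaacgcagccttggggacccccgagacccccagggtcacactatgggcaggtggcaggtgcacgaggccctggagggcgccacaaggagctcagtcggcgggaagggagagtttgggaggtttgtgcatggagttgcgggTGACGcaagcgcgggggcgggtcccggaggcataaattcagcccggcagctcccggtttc
Jun, chr4:95052223-95052472, minus strand: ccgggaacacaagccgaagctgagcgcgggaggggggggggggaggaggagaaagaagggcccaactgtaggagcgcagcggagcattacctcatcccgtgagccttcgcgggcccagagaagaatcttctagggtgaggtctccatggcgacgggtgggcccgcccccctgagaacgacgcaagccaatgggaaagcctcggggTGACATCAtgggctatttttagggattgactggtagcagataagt
Dusp1, chr17:26508473-26508722, minus strand: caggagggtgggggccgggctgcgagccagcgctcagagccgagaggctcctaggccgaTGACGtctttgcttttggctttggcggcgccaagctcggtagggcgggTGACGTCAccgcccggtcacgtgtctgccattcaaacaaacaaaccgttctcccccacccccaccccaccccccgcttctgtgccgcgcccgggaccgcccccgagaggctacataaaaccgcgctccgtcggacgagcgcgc

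Both strands were searched. TGACG occurred in the promoters of Fos, Fosb, Junb and Dusp1, 4 of 8, and in 17.8% of all 32851 promoters of this length. The copy closest to the start began at position -66 in Fos and at position -60 in Fosb. The full TGACGTCA, which contains TGACG on both strands, occurred in Dusp1, from position -143 to -136, and in 1.55% of all promoters. TGACATCA occurred in Jun, from position -45 to -38, and in 2.93% of all promoters. The AP-1 site TGANTCA was in none of the 8 and in 6.75% of all promoters, and the CArG box of serum response factor was in none of the 8 and in 1.47%. The GC box GGGCGG was in 6 of the 8 against 32.7% of all, the EGR site GCGNGGGCG in Fosb and Fosl2 against 4.7%, and TATAAA in Fos against 12.4%; in Fosb and Fosl2 the EGR site and a GC box overlap. These matches describe the letters in 1 window and show no binding.

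Between 58.8% and 62.4% of probes were well above background on each array, and the 75th percentile of log2 signal, on which each array was scaled, lay between 8.89 and 11.01. By the slide barcodes, replicate 1 of every group lay on slide 1 and replicate 2 on slide 2, so slide and replicate number cannot be told apart. The array of shRNA2 replicate 1 stood apart from the others in markers of other blood cells, described with Fos below. All 12 erythroid markers were measured, with a median level per array between 3.71 and 5.45 on the normalized log2 scale. Zfp36l2 averaged 4.0 in shRNA1 cells, 3.91 in shRNA2 cells, 5.49 in control cells with DEX and 3.67 in control cells without DEX. Its differences of -1.48 for shRNA1, -1.57 for shRNA2 and 1.81 for DEX (SE 0.31 each) had the same sign on both slides but did not pass the test over all genes (limma, adjusted p of 0.922, 1 and 0.391).

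Levels are given as log2 processed signal minus the array's 75th percentile, for replicate 1 and then replicate 2 of a group, so that 0 is the level of that percentile. Levels are compared between arrays for 1 gene and not between genes, whose probes differ. In such bulk samples, fewer cells of a type and less RNA per cell cannot be told apart. Fos, whose protein pairs with Jun proteins and activates transcription, was measured by 10 copies of 1 probe (mm9 chr12:86817900-86817959), with an SD between copies of 0.037 to 0.087 on an array and 1 copy left out on 1 array. Fos stood at -1.54 and -3.34 in shRNA1 cells, at 0.24 and -3.40 in shRNA2 cells, at -1.26 and -2.43 in control cells with DEX, and at -0.47 and -1.78 in control cells without DEX. The 4 groups overlapped, whereas all 4 arrays of slide 1 lay above all 4 of slide 2.

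Fosb, a close relative of Fos (probe at mm9 chr7:19888168-19888227), stood at -1.93 and -3.43 in shRNA1 cells, at 0.05 and -3.31 in shRNA2 cells, at -1.63 and -3.27 in control cells with DEX, and at -1.11 and -2.44 in control cells without DEX. It followed Fos closely: with each gene centred on its own mean, they differed by a root mean square of 0.30 over the 8 arrays. The highest array for both genes was shRNA2 replicate 1. Fosl2 encodes the Fos-related protein Fra-2. Its probe at mm9 chr5:32460076-32460135 stood at -4.07 and -4.18 in shRNA1 cells, at -2.06 and -3.22 in shRNA2 cells, at -3.05 and -3.33 in control cells with DEX, and at -4.73 and -3.28 in control cells without DEX. Here the slides overlapped, and both shRNA1 arrays lay below both arrays of the other DEX-treated groups. A second Fosl2 probe (mm9 chr5:32455088-32455147) was well above background on 1 of 8 arrays and was not tested.

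Jun, whose protein can form AP-1 without a Fos protein, varied most among the 10 genes, with an SD of 1.56 over the 8 arrays. Jun stood at 3.97 and 0.75 in shRNA1 cells, at 4.64 and 2.00 in shRNA2 cells, at 3.00 and 0.37 in control cells with DEX, and at 3.98 and 2.08 in control cells without DEX (mm9 chr4:94716928-94716987). On each slide the array of control cells with DEX was the lowest, and all arrays of slide 1 lay above all of slide 2. Junb, whose protein can hold back Jun activity, kept within a range of 1.26 over the 8 arrays. It stood at -2.62 and -3.30 in shRNA1 cells, at -2.15 and -3.18 in shRNA2 cells, at -2.69 and -3.24 in control cells with DEX, and at -2.75 and -3.41 in control cells without DEX (mm9 chr8:87501881-87501940). Jund, known as the most constantly expressed Jun gene, stood at 4.30 and 2.67 in shRNA1 cells, at 4.23 and 3.04 in shRNA2 cells, at 3.74 and 2.46 in control cells with DEX, and at 3.97 and 2.81 in control cells without DEX (mm9 chr8:73224436-73224495). As with Jun, the groups of Junb and of Jund overlapped and the slides did not.

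**Figure D1:**
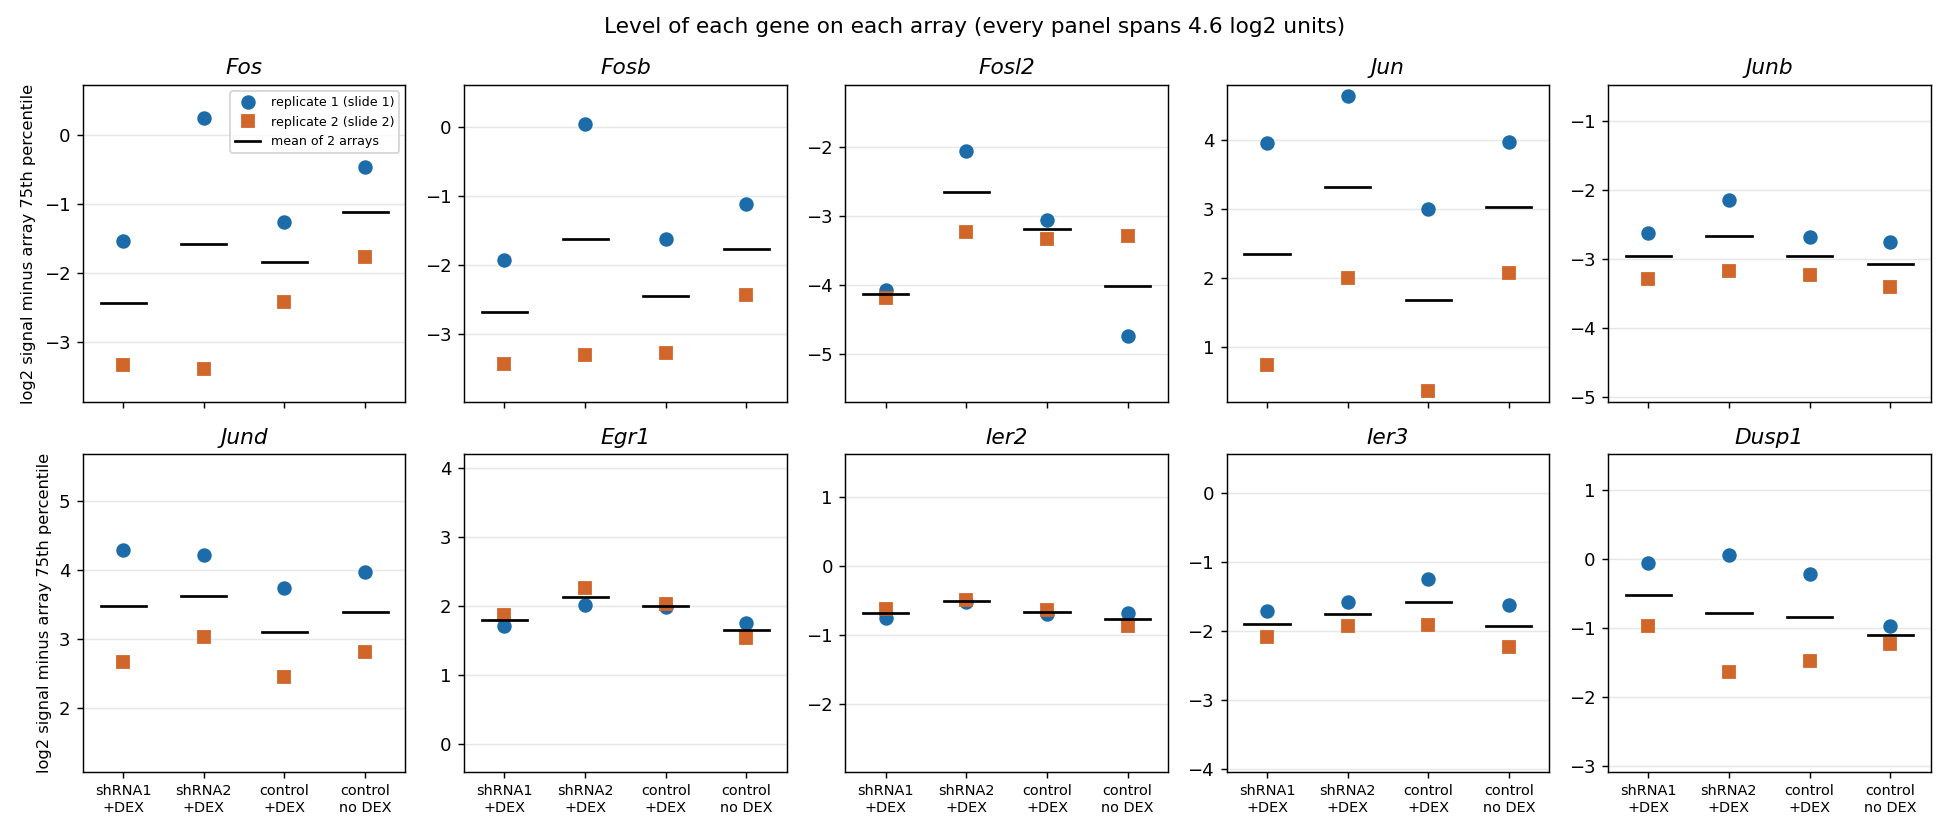
Normalized log2 level (y axis, log2 signal minus the array's 75th percentile) of each of the 10 genes in the 4 groups (x axis), with a circle for replicate 1 on slide 1, a square for replicate 2 on slide 2 and a bar for their mean. For Fos, Fosb, Jun, Junb, Jund and Ier3 all 4 circles lie above all 4 squares, whereas for Egr1 and Ier2 circles and squares lie together.

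Egr1 and Ier2 varied least among the 10 genes. Egr1 stood at 1.71 and 1.87 in shRNA1 cells, at 2.01 and 2.25 in shRNA2 cells, at 1.98 and 2.02 in control cells with DEX, and at 1.75 and 1.53 in control cells without DEX, a range of 0.72. Ier2 stood at -0.75 and -0.62 in shRNA1 cells, at -0.52 and -0.50 in shRNA2 cells, at -0.70 and -0.64 in control cells with DEX, and at -0.68 and -0.87 in control cells without DEX, a range of 0.36 (mm9 chr8:87186214-87186273). Their slides overlapped, and their centred profiles differed by a root mean square of 0.12. For Egr1 both arrays of control cells with DEX lay above both arrays without DEX.

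Ier3, which encodes a regulator of cell survival, stood at -1.71 and -2.08 in shRNA1 cells, at -1.57 and -1.92 in shRNA2 cells, at -1.24 and -1.91 in control cells with DEX, and at -1.62 and -2.23 in control cells without DEX (mm9 chr17:35959528-35959587). Dusp1 stood at -0.06 and -0.96 in shRNA1 cells, at 0.07 and -1.63 in shRNA2 cells, at -0.21 and -1.47 in control cells with DEX, and at -0.96 and -1.23 in control cells without DEX. Slide 1 was the higher in every group for both genes, and the arrays of compared groups overlapped for both. The probes of Ier3 and Dusp1 are shown in part because they alone, of the 11 probes, hold the AU-rich letters TATTTAT, in capitals, a type of element that Zfp36 family proteins are known to bind; 1.22% of all 39429 probes hold them on the probe's strand. Whether the protein binds there was not tested.
Dusp1, bases 11 to 40 of a 60-base probe: gtttttaccttTATTTATttttgtgtaggt
Ier3, bases 4 to 33 of a 60-base probe: tgtaacacagaTATTTATtacgatttatag

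For 7 of the 10 genes the level differed between the slides, and with them between the replicate numbers. Jun was 6.05-fold higher on slide 1 than on slide 2, with a difference of 2.60 on the log2 scale (SE 0.23), Fos 3.95-fold, at 1.98 (SE 0.44), and Fosb 3.87-fold, at 1.95 (SE 0.37). Jund differed by 1.32 (SE 0.14), Dusp1 by 1.03 (SE 0.25), Junb by 0.73 (SE 0.14) and Ier3 by 0.50 (SE 0.14). These 7 genes passed the test of the slide (limma over all genes, with group in the fit, adjusted p between 0.0119 and 0.0304) and were higher on slide 1 in all 4 groups. The other three did not: Fosl2 differed by 0.02 (SE 0.42), Egr1 by -0.05 (SE 0.14) and Ier2 by -0.01 (SE 0.13). Much of the transcriptome also differed between the slides: 30.8% of all genes were called higher on slide 1, 19.1% were called lower, and 39.3% were higher on slide 1 in all 4 groups. For 6 members all arrays of slide 1 lay above all of slide 2, against 24.8% of all genes. The members' median difference was 0.88, against 0.18 for all genes, and Jun stood at the 98.4th percentile of absolute difference, Fos at the 95.4th, Fosb at the 95.1st and Junb at the 59.3rd.

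The slide result rests on few arrays and partly on the scaling. The 75th percentile of log2 signal averaged 9.45 on slide 1 and 10.78 on slide 2, a difference of -1.33. In the deposited signal before scaling, Jun was brighter on slide 1 by 1.27, Fos by 0.65 and Fosb by 0.62, Jund differed by -0.01, and the other 6 genes were dimmer there (-1.38 to -0.30). The slide differences above are thus relative to that percentile. Leaving out either shRNA1 array left 0 genes called (smallest adjusted p 0.0711), with Jun at 2.39 and Fos at 2.04, and leaving out either array of control cells with DEX left 4 members called, Fos, Fosb, Jun and Jund. Without either shRNA2 array, Fos differed by 1.43 and Fosb by 1.49, both still called, while Ier3 and Dusp1 were not. With arrays scaled on their medians, which moved the all-gene difference to -0.45, Jun was higher on slide 1 by 1.97, Fos by 1.35, Fosb by 1.32 and Jund by 0.69, all called, but Junb (0.10), Dusp1 (0.40) and Ier3 (-0.13) were not. The labels do not give what else differed between replicates 1 and 2, and it cannot be told apart from the slide.

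**Figure D2:**
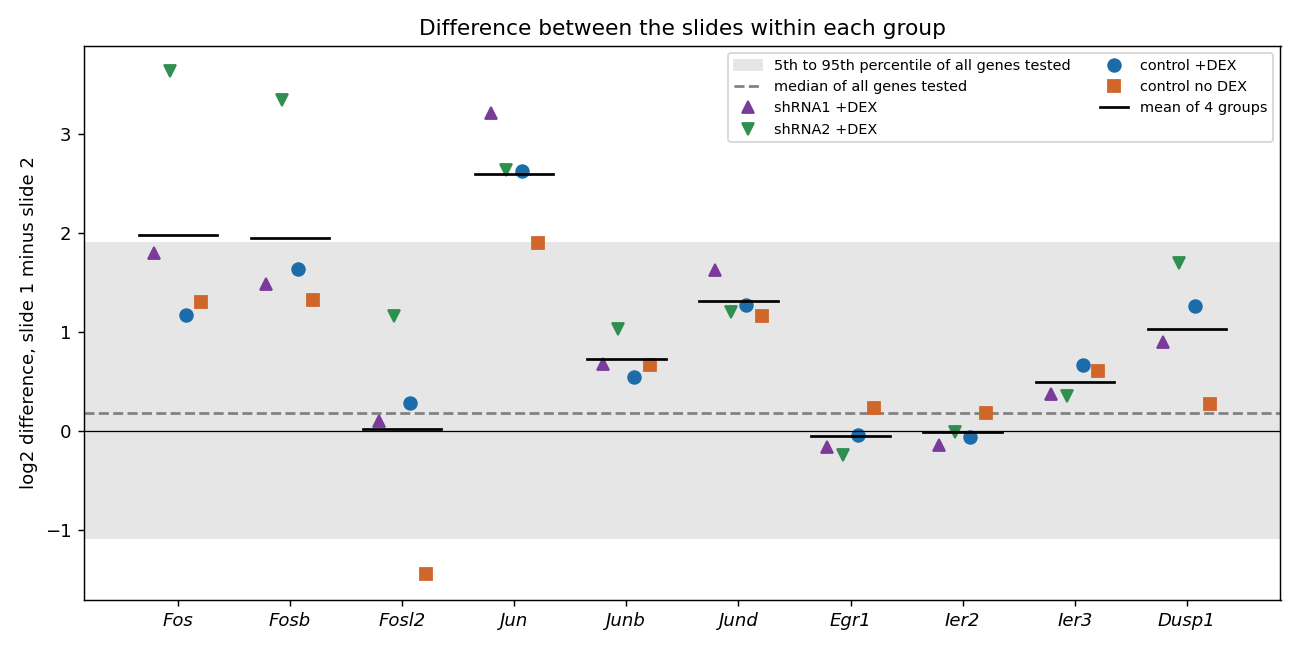
Difference between the slides (y axis, log2 level on slide 1 minus slide 2) of each of the 10 genes (x axis), with a symbol for each of the 4 groups, a bar for their mean, a grey band from the 5th to the 95th percentile of all genes tested (-1.08 to 1.90) and a dashed line at their median (0.18). Jun, Fos and Fosb have means of 2.60, 1.98 and 1.95 above the band, and the shRNA2 symbols of Fos and Fosb, at 3.64 and 3.35, lie farthest from the other groups.

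DEX was compared in control-virus cells to ask which genes respond to the glucocorticoid. Jun had the largest difference among the 10 genes: it averaged 1.68 with DEX and 3.03 without, a difference of -1.35 (SE 1.52). Fos averaged -1.85 with DEX and -1.13 without, a difference of -0.72 (SE 1.29), and Fosb -2.45 with DEX and -1.78 without, a difference of -0.67 (SE 1.23). Fosl2 had the next largest difference after Jun, with the opposite sign: it averaged -3.19 with DEX and -4.01 without, a difference of 0.81 (SE 0.59). That rise was on slide 1 alone, with 1.68 within slide 1 and -0.05 within slide 2. None of the 10 genes passed the test, and neither did any of the 19128 genes (0%, limma, smallest adjusted p 0.158); at an unadjusted p below 0.05 there were 601 genes (3.14%) and no member. Fos, Fosb, Jun and Jund were lower on both slides, against 40.5% of all genes, and Junb, Egr1 and Ier3 were higher on both, against 22.7%. Both arrays with DEX lay above both without for Egr1 alone (a difference of 0.36, SE 0.28), against 10.1% of all genes, and no member lay below, against 17.2%. The members' median difference was 0.11, against -0.08 for all genes. Dusp1 differed by 0.76 within slide 1 and by -0.24 within slide 2.

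With the slide as a block, the DEX comparison called 42 genes (0.22%) and still none of the 10. Jun came closest: its difference of -1.35 had a 95% interval of -2.17 to -0.52 (limma with the block, adjusted p = 0.22), and it was -0.98 within slide 1 and -1.71 within slide 2. At an unadjusted p below 0.05 the block fit held 9.54% of all genes and, among the members, Jun alone. The intervals of Fos (-2.27 to 0.83) and Fosb (-1.98 to 0.63) include 0 and also include falls larger than that measured for Jun. Dusp1, a textbook glucocorticoid-induced gene, differed by 0.26, with an interval of -0.64 to 1.16.

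The hairpins were compared with control virus under DEX to ask which genes depend on the RNA-binding protein. Both comparisons and the DEX comparison share the 2 arrays of control cells with DEX. For shRNA1 the largest differences were in Fosl2, which averaged -4.12 in shRNA1 cells and -3.19 in control cells with DEX, a difference of -0.93 (SE 0.59), and in Jun, at 2.36 in shRNA1 cells and 1.68 in control cells with DEX, a difference of 0.68 (SE 1.52). Within the slides Fosl2 differed by -1.02 and -0.84, and Jun by 0.97 and 0.39. No member and no gene passed the test (0%, limma, smallest adjusted p 0.347, with 407 genes, or 2.13%, at an unadjusted p below 0.05), and with the block the count was again 0. Both shRNA1 arrays lay below both control arrays with DEX for Fosl2 and Egr1, against 7.59% of all genes, and above them for no member, against 17.9%. On both slides 3 members were higher, against 49.4% of all genes, and 5 were lower, against 26.5%. The members' median difference was -0.11, against 0.18 for all genes.

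For shRNA2 the largest difference was in Jun, which averaged 3.32 in shRNA2 cells and 1.68 in control cells with DEX, a 3.11-fold higher level (1.64 on the log2 scale, SE 1.52). The difference was nearly the same within slide 1 (1.64) and within slide 2 (1.63), and with the slide as a block its interval was 0.81 to 2.46 (limma, adjusted p = 0.776). Jund differed by 0.53, by 0.49 and 0.58 within the slides (interval with the block 0.02 to 1.05, limma, adjusted p = 0.776). No member and no gene passed the test without the block (0%, smallest adjusted p 0.0723, with 238 genes, or 1.24%, at an unadjusted p below 0.05), and 1 gene (0.00523%), not a member, passed with it. At an unadjusted p below 0.05 the block fit held 5.72% of all genes and 2 of the 10, Jun and Jund. The number of members higher on both slides was 6 of 10, against 27.4% of all genes, and Ier3 was lower on both, against 25%. Both shRNA2 arrays lay above both control arrays with DEX for Ier2 alone, whose sign turned with arrays scaled on their medians (-0.09), against 7.39% of all genes, and below them for no member, against 8.1%. The members' median difference was 0.29, against 0.02 for all genes. Fos differed by 1.5 within slide 1 and by -0.96 within slide 2, and Fosb by 1.68 and -0.03.

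**Figure D3:**
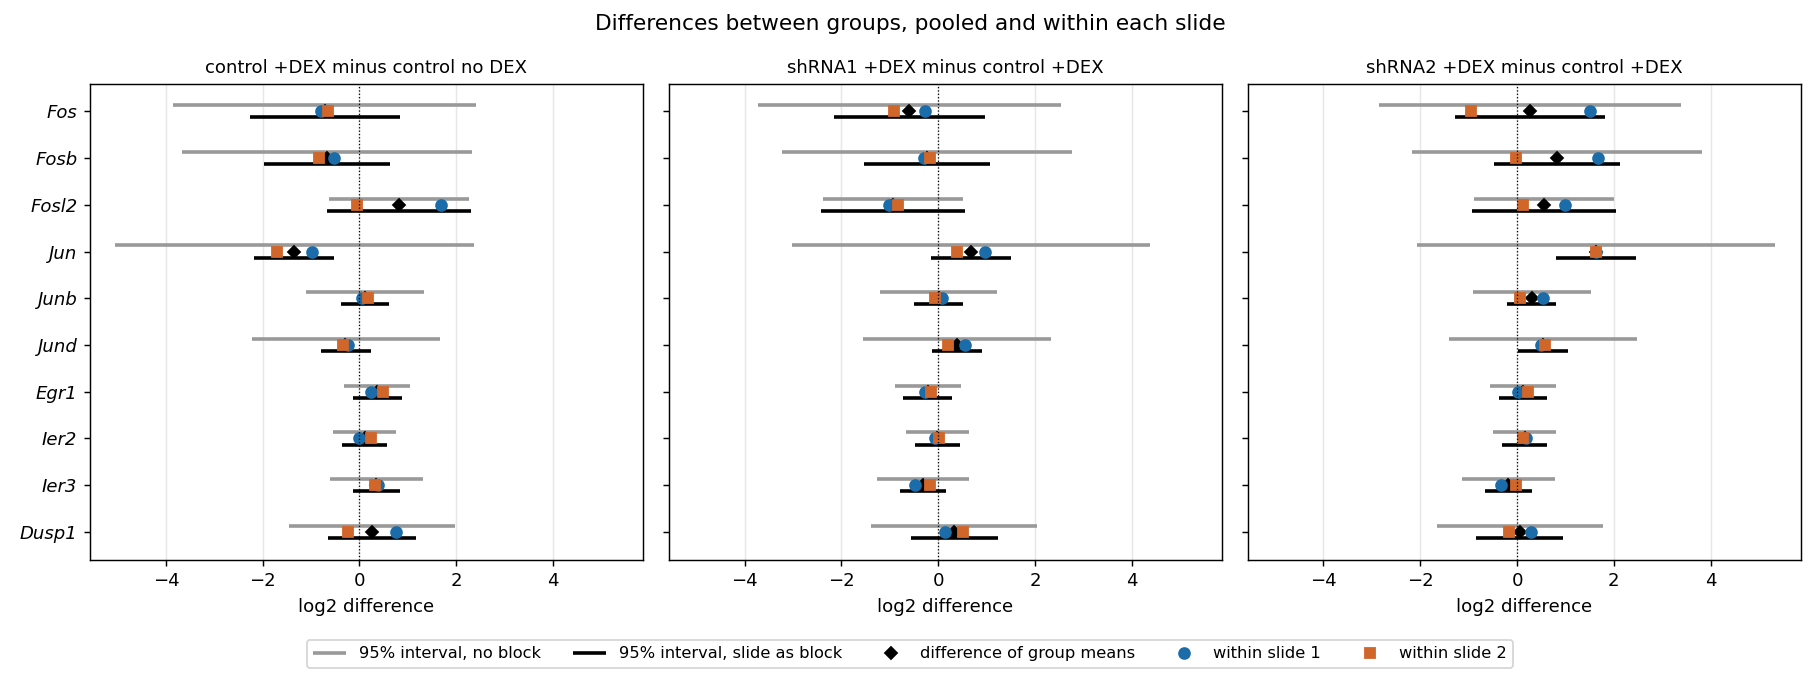
Log2 differences (x axis) of the 10 genes (y axis) for control cells with DEX minus without (left), shRNA1 minus control with DEX (middle) and shRNA2 minus control with DEX (right). Diamonds are differences of group means, grey lines 95% intervals without the slide, black lines 95% intervals with the slide as a block, circles and squares the differences within slide 1 and slide 2. The black line of Jun leaves out 0 for DEX (-2.17 to -0.52) and shRNA2 (0.81 to 2.46), as does that of Jund for shRNA2 (0.02 to 1.05).

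The 2 hairpins were also set against each other. Fosl2 averaged -4.12 in shRNA1 cells and -2.64 in shRNA2 cells, a difference of -1.49 (SE 0.59, limma, adjusted p = 1), with -2.01 and -0.96 within the slides. Both shRNA1 arrays lay below both shRNA2 arrays for Fosl2, Egr1 and Ier2, 3 of 10, against 4.69% of all genes, and above them for no member, against 12%. On both slides 7 members were lower in shRNA1 cells, against 22.5% of all genes, and none was higher, against 45.3%. No gene passed the test, with or without the block (0%, smallest adjusted p 0.645 without it), and 456 genes (2.38%) had an unadjusted p below 0.05, with Fosl2 the only member. With the block, 10.9% of all genes and, among the members, Jun alone had an unadjusted p below 0.05. The members' median difference was -0.32, against 0.12 for all genes. Fosb differed by -1.98 within slide 1 and by -0.12 within slide 2, and Fos by -1.78 and 0.05.

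The array of shRNA2 replicate 1, which was highest for Fos, Fosb, Fosl2, Jun, Junb and Dusp1, was also highest for markers of other blood cells. The median of the 14 granulocyte markers, all measured, was 3.28 there and between -1.23 and 1.43 on the other 7 arrays, and that of the 12 measured of 15 monocyte and macrophage markers was -1.11 there and between -4.59 and -1.83 elsewhere. The median of the 11 megakaryocyte markers was 1.86 there and between 0.26 and 1.23 elsewhere. By group and replicate, the log2 of the summed granulocyte marker level was 7.07 and 7.19 in shRNA1 cells, 9.12 and 6.51 in shRNA2 cells, 5.24 and 6.06 in control cells with DEX, and 5.36 and 7.53 in control cells without DEX. The excess was thus not confined to 1 array. Against control cells with DEX all 14 were higher with either hairpin, and none was called. Their median difference was 1.62 for shRNA1 and 2.41 for shRNA2, against 0.18 and 0.02 for all genes. The log2 sum of the monocyte and macrophage markers was 5.95 and 3.47 in shRNA1 cells, 6.13 and 2.90 in shRNA2 cells, 4.54 and 2.87 in control cells with DEX, and 4.29 and 3.70 in control cells without DEX. Itgam was the largest part of this sum on every array and was itself higher on slide 1 by 2.38 (SE 0.37). The granulocyte and the monocyte and macrophage sums were both highest on shRNA2 replicate 1, and the lowest array of each was one of control cells with DEX. That of the megakaryocyte markers was 6.36 and 4.56 in shRNA1 cells, 7.64 and 3.93 in shRNA2 cells, 4.98 and 4.28 in control cells with DEX, and 5.75 and 6.22 in control cells without DEX. Among the macrophage markers C1qb, Csf1r and Adgre1 passed the filter, whereas C1qa and C1qc did not. Of the 10 mast cell and basophil markers, 5 were measured, with array medians of -2.32 to 0.47, and of the 10 hepatocyte markers 5, with array medians of -5.91 to -2.20, where Afp and Apoa1 passed and Alb and Ttr did not. The part of such cells in the Fos and Fosb levels was not tested.

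Without that array, the shRNA2 difference was -1.55 for Fos, -0.85 for Fosb, -0.02 for Fosl2 and 0.31 for Jun. Fos, Fosb and Fosl2 thus turned sign. These values set an array of slide 2 against control arrays of both slides, so they hold part of any slide difference. With the slide as a block they were -0.83 for Fos, -0.11 for Fosb and -0.20 for Fosl2. Jun was then between 1.61 and 1.66 whichever array was left out. Within slide 2 alone, Fos differed by -0.96, Fosb by -0.03, Fosl2 by 0.12 and Jun by 1.63. Marker lists also differed between the slides. The megakaryocyte markers were higher on slide 1 in 11 of 11 genes (median 1.35, 2 called), and 6 of 12 erythroid markers were called higher there (median 0.52), in the same direction as Fos, Fosb and Jun. Those 6 include the globin genes Hba-a1 (1.44) and Hbb-bt (1.34), whose deposited signal was nearly the same on all arrays. Their slide difference is close in size to that of the 75th percentiles (-1.33), which the scaling subtracts. Neither gene was marked as saturated on any array, and whether such bright probes still register differences between arrays was not tested. The monocyte and macrophage markers had a median of 0.16 with 2 of 12 called higher, and the granulocyte markers one of -0.12 with 0 of 14 called, against 0.18 for all genes. The part of these cells in the slide differences was not tested.

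**Figure D4:**
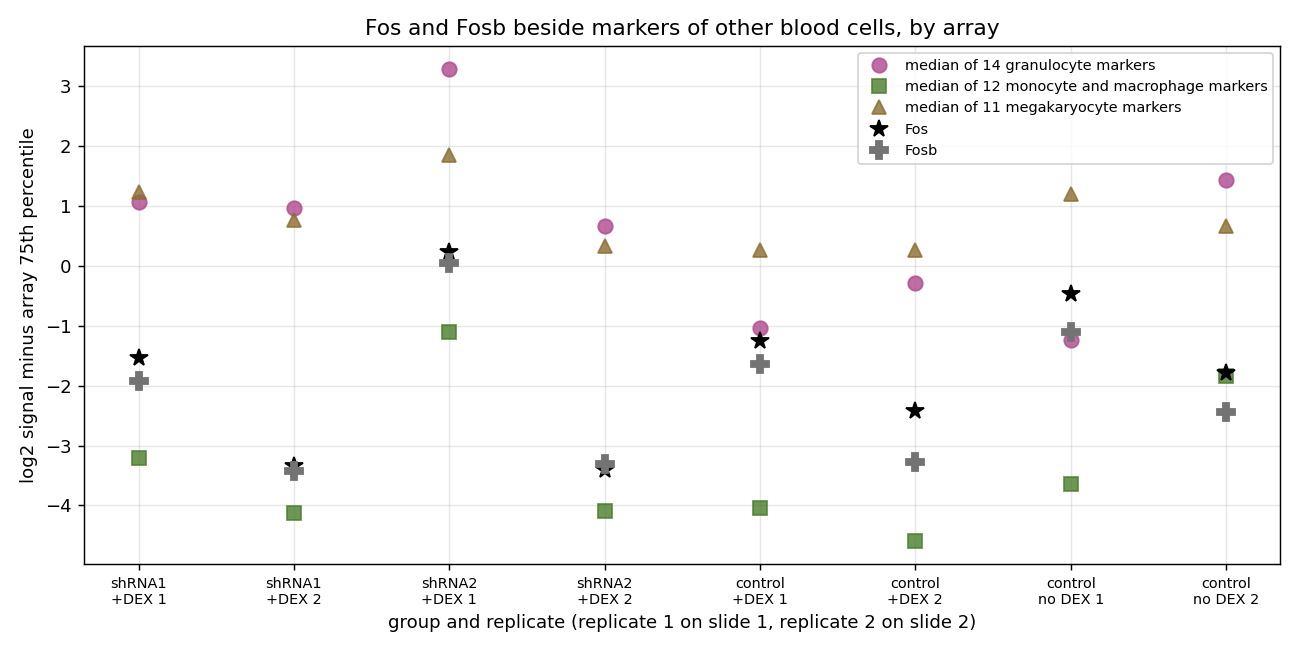
Normalized log2 level (y axis, log2 signal minus the array's 75th percentile) of Fos and Fosb on each of the 8 arrays (x axis, by group and replicate), with the median of 14 granulocyte, 12 monocyte and macrophage and 11 megakaryocyte markers. All 5 are highest on the array of shRNA2 replicate 1, at 0.24, 0.05, 3.28, -1.11 and 1.86.

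Other genes of the pathway came from lists written with results of these data known. Of 42 further immediate early genes, 35 were tested; on the slide, 19 were called higher and 3 lower, with a median of 0.68 against 0.18 for all genes. The transcription factor genes Klf2 and Klf6 were higher on slide 1 by 1.97 (SE 0.49) and 1.93 (SE 0.29), and Ppp1r15a, a stress-induced phosphatase subunit, by 1.91 (SE 0.16). Errfi1, a feedback inhibitor of the EGF receptor, was lower on slide 1, with a difference of -1.20 (SE 0.27), as were Homer1, which encodes a synaptic scaffold protein, at -0.89 (SE 0.19) and the growth regulator Myc at -0.58 (SE 0.15). Of 11 further AP-1 family genes, 2 were called higher on slide 1 (Batf2, 1.21, and Mafg, 0.50) and 2 lower (Fosl1, -1.16, and Atf2, -0.44). Of 9 other dual-specificity phosphatase genes, Dusp8 (1.24) and Dusp7 (1.11) were called higher, and Dusp9 (-1.10, well above background on 3 of 4 arrays of slide 1) and Dusp2 (-0.97) lower. Among 24 tested genes of the MAP kinase, SRF and CREB inputs, 5 were called higher and 5 lower. Elk1 was among the 5 called higher, but its probe had nearly the same deposited signal on all 8 arrays (371400 to 430700), so no size is given. The 5 called lower included Creb1 at -0.68 (SE 0.15) and Srf at -0.52 (SE 0.15), both genes of transcription factors that act on the Fos promoter.

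With DEX, none of the 35 immediate early, 11 AP-1 family, 9 phosphatase, 24 input and 9 tested AP-1 target genes passed the test, with or without the block. The largest differences without overlap were in Maff, a small Maf bZIP gene, which stood at -0.31 and -1.24 with DEX and at -3.35 and -3.49 without (2.64, SE 0.71, limma, adjusted p = 0.915, and 0.221 with the block), and in Tnfaip3, an inhibitor of NF-kB signalling, at 0.18 and -0.96 with DEX and at -2.39 and -2.77 without (2.19, SE 0.61, adjusted p = 0.968, and 0.0774 with the block). Dusp8 stood at -1.79 and -3.47 with DEX and at 0.04 and -1.18 without (-2.06, SE 0.77, adjusted p = 0.0604 with the block). In the same cells 2 of 12 glucocorticoid-induced genes passed with the block, Mt2, a metallothionein (4.27, SE 0.47, adjusted p = 0.0433), and Rasd1, a Ras-related gene (4.35, SE 0.92, adjusted p = 0.0305). Rasd1 was well above background on both arrays with DEX and on 1 of 2 without, so that the size of its difference depends on an array that did not measure it. The 35 further immediate early genes had a median difference of 0.22 for shRNA1, 0.26 for shRNA2 and 0.03 for DEX, against 0.18, 0.02 and -0.08 for all genes. The 9 measured of 15 AP-1 targets had medians of -0.09, 0.81 and -0.59 in the same order. The shRNA2 median draws on shRNA2 replicate 1, the array highest for markers of other blood cells. With shRNA2, 7 of the 9 were higher, 2 of them without overlap between arrays, against 7.39% of all genes. The part of that array in this median was not tested. For the hairpins no gene of these lists passed in limma with or without the block. Dusp8 differed by 1.54 for shRNA1 (SE 0.77), and among AP-1 targets Il1b by 1.86 for shRNA1 (SE 0.63) and Il6 by 2.84 for shRNA2 (SE 1.64). Il6 was well above background on both shRNA2 arrays but on 1 of 2 control arrays with DEX, and within slide 2, where both arrays measured it, it differed by 0.64.

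Outside the 10 genes, those whose 8 values ran most like those of Jun were Rusc2, Gstt2, Gm15085, Ripor3 and Ccdc92b, with root mean square differences of 0.44, 0.48, 0.49, 0.49 and 0.50 between centred log2 levels over 8 arrays, against an SD of 1.56 for Jun itself. All 5 were higher on slide 1, by 2.71, 2.29, 3.11, 1.78 and 2.95, with Gm15085 well above background on 4 of 4 arrays of slide 1 and on 1 of 4 of slide 2. Among the members, the profile nearest to Jun was that of Fosb, at 0.65.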

How the data were processed

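Cy3-labelled RNA of the 8 samples was measured on 1-colour Agilent arrays holding 44397 spots each. Per the file headers, the authors quantified the spots with Agilent Feature Extraction 10.1.1.1, and the deposited intensity is its processed signal on a linear scale. The submitters' processing notes also name limma, with no version. A matrix of log2 values that the authors deposited, made by steps not stated, served as 1 alternative. Positions of probes come from the files (build mm9); for Dusp1 the file lists a span of only 11 bases, and none is printed.

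For the comparisons, 1377 control spots and outlier-marked spots were dropped, repeat spots were averaged, and log2 processed signal was set relative to the array's 75th percentile. Arrays give no read depth: the precision is limited by having 2 of them per group. A probe entered if at least 1 group had it well above background on both arrays; the probe with the highest mean stood for a gene (3900 of 19128 genes had a choice). Accessions matched to the reference table named 26581 probes, and the files named the rest. One fit by limma 3.58.1 (R 4.3.3) covered all 8 arrays and all genes, with a Benjamini-Hochberg adjusted p-value below 0.05 as the threshold. SE and 95% intervals are those of the fit. Its estimates and calls were tested on simulated data with known changes, the same spread for all genes and smaller slide differences than here. The SE and intervals were not tested.

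Arrays of the same number deviated together (correlations of 0.43 to 0.86 over 6 pairs of groups), so the replicate number, also the slide, was a block in a second fit. The slide term was tested after the data had been seen. Alternatives were scaling on the median, quantile normalization, normexp (offset 50) as is or with repaired local background, the deposited log2 matrix, no filter, every probe alone, and leaving out each array; a lone array was then assumed to vary like the other groups.

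The 10 genes and all lists (AP-1 family, immediate early, phosphatase, MAP kinase, SRF and CREB inputs, AP-1 targets, glucocorticoid-induced genes and markers of 6 cell types) were chosen with earlier results of these data known. The text names all 10 genes. From the lists it draws on genes that passed with or without the block and, per comparison, on at most the 3 largest differences without overlap between arrays. Examples for the slide were chosen after their values were seen. Likeness to Jun was the root mean square difference of centred levels. Promoters are those of RefSeq. The packages data.table (version 1.17.8), pandas (2.3.3) and matplotlib (3.10.9) served for tables and plots.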

Additional observations from a re-analysis of the deposited data

Results flagged for a closer look

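In 2 of the 10 genes both slides gave opposite signs for the hairpins against control cells with DEX. Fosl2 differed by -1.02 and -0.84 for shRNA1 and by 0.99 and 0.12 for shRNA2, and the difference between the hairpin effects, -1.49 (SE 0.59), did not pass the test over all genes (limma, adjusted p = 1, or 0.457 in the fit that blocks on the slide). Egr1 differed by -0.27 and -0.15 for shRNA1 and by 0.02 and 0.22 for shRNA2, with a difference between the effects of -0.33 (SE 0.28, limma, adjusted p = 1, or 0.578 with the block). The same opposite pattern was present in 1413 genes, 7.39% of those tested.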

How the results depend on the processing

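Without a replicate block, the count of genes called was 0 for DEX, shRNA1, shRNA2 and the difference between the hairpins under every alternative run, and no member was called in any of these comparisons. The replicate block moved the count to 42 for DEX and to 1 for shRNA2, and changed no call on a member. With the block, leaving out 1 array gave 0 to 108 genes for DEX (2 and 0 without replicate 1 and replicate 2 of control cells without DEX, 108 without either shRNA2 array) and 0 to 8 for shRNA2 (8 without shRNA2 replicate 2). The slide test called 9541 genes, 61.8% of them higher on slide 1, and 8654, 23% of them higher, with arrays scaled on their medians. Leaving out 1 array gave 0 to 9911, with 0 without either shRNA1 array, 3847 without either array of control cells with DEX and 6060 without either shRNA2 array. Every probe alone gave 11905 calls. Under normexp Fos (0.54, adjusted p = 0.0582) and Fosb (0.49, adjusted p = 0.0548) were not called on the slide. Of the 7 members called on the slide, 3 to 7 were called under the alternatives on 8 arrays.

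Some differences turned sign, of which Ier3 on the slide alone had been called. Scaling on the median put all genes at -0.22 for either hairpin, and gave -0.39 for Junb, -0.01 for Jund and -0.07 for Dusp1 with shRNA1 and -0.12 for Egr1, -0.09 for Ier2 and -0.18 for Dusp1 with shRNA2. Junb with shRNA1 was also -0.27 by quantile normalization, -0.06 by normexp, -0.20 with repaired background and -0.30 in the deposited matrix. On the slide, Fosl2 was -0.61 by median scaling, -0.44 by quantile normalization, -0.05 by normexp, -0.21 with repaired background and -0.28 in the matrix, Ier3 was -0.13 by median scaling, and Egr1 was 0.06, 0.03, 0.04 and 0.03 under the last 4 of these settings.

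Leaving out 1 array gave wide ranges. In the comparisons of groups, which had no block here, leaving out an array of a compared group left the slides unequally represented. Those ranges thus hold part of any slide difference. For DEX they were -1.49 to 0.14 for Fosb, -0.22 to 0.45 for Junb, -0.93 to 0.35 for Jund and -0.37 to 0.89 for Dusp1. For shRNA1 they were -1.5 to 0.30 for Fos, -1.05 to 0.59 for Fosb, -0.93 to 2.29 for Jun, -0.33 to 0.34 for Junb, -0.43 to 1.20 for Jund, -0.09 to 0.05 for Ier2, -0.65 to 0.01 for Ier3 and -0.30 to 0.96 for Dusp1. For shRNA2 they were -1.55 to 2.09 for Fos, -0.85 to 2.50 for Fosb, -0.02 to 1.13 for Fosl2, -0.21 to 0.82 for Junb, -0.11 to 1.17 for Jund, -0.51 to 0.16 for Ier3 and -0.79 to 0.91 for Dusp1. Between the hairpins they were -2.68 to 0.95 for Fos, -2.73 to 0.62 for Fosb, -2.57 to 0.65 for Jun, -0.81 to 0.22 for Junb, -0.97 to 0.67 for Jund, -0.33 to 0.04 for Ier3 and -0.58 to 1.12 for Dusp1. On the slide they were -0.36 to 0.51 for Fosl2, -0.14 to 0.01 for Egr1 and -0.07 to 0.04 for Ier2.

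With the block and 1 array left out, signs turned for DEX in Fosl2 (-0.17), Dusp1 (-0.25), Ier2 (-0.02) and Junb (-0.01). They turned for shRNA1 in Junb (-0.11 and -0.03), Ier2 (0.02 and 0.07) and Fosb (0.08). For shRNA2 they turned in Fos (-0.27 without control replicate 1 with DEX and -0.83 without shRNA2 replicate 1), Fosb (-0.11), Fosl2 (-0.20) and Dusp1 (-0.09 and -0.39), and between the hairpins in Jund (0.06), Fos (0.24) and Dusp1 (-0.17). The causes were not tested. With 2 arrays per group, differences whose interval includes 0 could not be told from 0. Some whose interval left out 0 did not pass over all genes either, as for Jun with shRNA2 in the block fit (0.81 to 2.46).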
